A study of Mus musculus with 11 samples.

Results

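The H3K9me3 CUT&Tag-BS data of mouse embryonic stem cells were compared between a short-read run (run 1, paired-end 35 bp) and a long-read run (run 2, paired-end 75 bp). CUT&Tag-BS uses an antibody to direct a protein A-Tn5 transposase, loaded with methylated adapters, to chromatin carrying a histone mark. The tagged DNA is then treated with bisulfite, so that the mark and the methylation of each cytosine are read from the same fragments. The members were all peaks of the per-run lists on chromosomes 1 to 19, 12938 in run 1 and 19411 in run 2, with the methylated and total calls at every CpG of the deposited count table. Peaks of both lists that shared at least 1 bp were merged, which gave 19904 regions, against 66826 when the peaks of all 11 lists of the study were merged. Of the 19904, 11524 (57.9%) held a peak in both runs, 7865 (39.5%) in run 2 only and 515 (2.59%) in run 1 only.

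All groups used here were E14 cells, a 129/Ola line, grown with fetal bovine serum and leukemia inhibitory factor. The H3K9me3 runs and an H3K9me3 control prepared without bisulfite used 250000 cells each, as did the H3K4me1 runs and the H3K27me3 library set beside them. Each group was 1 sample. The H3K9me3 runs were treated as repeated sequencing of 1 library, not as replicates, so no test across samples was possible and all intervals are Wilson 95% intervals for counting error only. Neighbouring CpGs can come from the same molecule and molecules were copied by PCR, so these intervals are too narrow. Run 2 differed from run 1 in read length and in depth together, and the contributions of these to any difference cannot be told apart.

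H3K9me3 marks constitutive heterochromatin. In embryonic stem cells Setdb1, with its cofactor Trim28, is guided by KRAB zinc finger proteins to retrotransposons and to the methylated allele of imprinted control regions, and the Suv39h enzymes write the mark at pericentromeric satellite repeats. Many of these sites are densely methylated, and many are repeated in near-identical copies, where a short read has fewer bases that tell one copy from another.

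Single promoters show which CpGs each run called. Of 34 genes of the lists described further down that had a peak in either run over the 250 bases before their start, 29 had a CpG there. Run 2 called more of these CpGs than run 1 at 19 genes, the same number at 9 and fewer at 1. All CpGs were called at 8 promoters in run 1 and at 25 in run 2. Over all CpGs run 2 had 3.14 times the calls of run 1, and a promoter could enter through a run 2 peak alone. The greater numbers in run 2 thus follow in part from depth and from how the promoters were chosen. Shown are the 3 with the largest gain and the single loss, chosen after their values were seen, 5′ to 3′ on the gene's strand from RefSeq (GRCm38.p6). They are Plagl1 (chr10:13090582-13090831, plus strand), a maternally imprinted zinc finger gene, and Atf7ip (chr6:136518601-136518850, plus strand), the partner that stabilises Setdb1. The others are Peg3 (chr7:6730420-6730669, minus strand), a paternally expressed imprinted gene, and the zinc finger gene Zfp996 (chr12:18387241-18387490, plus strand). Capitals mark the CG of each CpG with at least 1 call in that run.
Plagl1 run 1: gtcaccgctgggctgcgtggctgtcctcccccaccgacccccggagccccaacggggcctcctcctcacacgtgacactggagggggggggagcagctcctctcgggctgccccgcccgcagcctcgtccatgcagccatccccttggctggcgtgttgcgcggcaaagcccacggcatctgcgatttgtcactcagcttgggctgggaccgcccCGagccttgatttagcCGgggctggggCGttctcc
Plagl1 run 2: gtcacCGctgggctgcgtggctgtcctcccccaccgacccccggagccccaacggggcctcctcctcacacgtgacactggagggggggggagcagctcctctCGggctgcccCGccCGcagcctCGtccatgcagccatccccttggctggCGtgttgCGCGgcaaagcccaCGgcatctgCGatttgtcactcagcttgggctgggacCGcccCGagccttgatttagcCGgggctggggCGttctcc
Atf7ip run 1: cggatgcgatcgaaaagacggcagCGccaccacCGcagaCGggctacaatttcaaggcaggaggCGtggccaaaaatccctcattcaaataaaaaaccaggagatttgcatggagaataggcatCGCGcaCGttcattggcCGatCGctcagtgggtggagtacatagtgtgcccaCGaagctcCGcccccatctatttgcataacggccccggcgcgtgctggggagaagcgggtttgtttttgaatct
Atf7ip run 2: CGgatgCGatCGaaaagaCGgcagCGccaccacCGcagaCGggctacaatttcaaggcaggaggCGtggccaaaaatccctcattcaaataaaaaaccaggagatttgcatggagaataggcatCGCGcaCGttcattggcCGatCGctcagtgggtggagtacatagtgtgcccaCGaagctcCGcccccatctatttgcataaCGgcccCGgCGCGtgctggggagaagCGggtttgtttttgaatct
Peg3 run 1: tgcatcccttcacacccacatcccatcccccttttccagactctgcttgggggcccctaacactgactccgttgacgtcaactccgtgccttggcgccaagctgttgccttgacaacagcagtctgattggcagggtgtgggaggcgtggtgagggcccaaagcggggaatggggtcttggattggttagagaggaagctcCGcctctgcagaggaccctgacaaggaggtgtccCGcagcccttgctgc
Peg3 run 2: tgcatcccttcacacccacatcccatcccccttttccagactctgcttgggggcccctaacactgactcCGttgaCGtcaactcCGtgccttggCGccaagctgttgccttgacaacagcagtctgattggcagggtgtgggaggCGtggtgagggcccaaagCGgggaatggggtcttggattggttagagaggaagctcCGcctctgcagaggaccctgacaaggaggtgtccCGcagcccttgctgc
Zfp996 run 1: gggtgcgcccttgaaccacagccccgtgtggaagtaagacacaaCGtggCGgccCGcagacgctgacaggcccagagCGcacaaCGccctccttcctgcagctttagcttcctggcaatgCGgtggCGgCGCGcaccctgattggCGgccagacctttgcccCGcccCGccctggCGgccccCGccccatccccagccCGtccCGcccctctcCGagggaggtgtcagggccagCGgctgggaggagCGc
Zfp996 run 2: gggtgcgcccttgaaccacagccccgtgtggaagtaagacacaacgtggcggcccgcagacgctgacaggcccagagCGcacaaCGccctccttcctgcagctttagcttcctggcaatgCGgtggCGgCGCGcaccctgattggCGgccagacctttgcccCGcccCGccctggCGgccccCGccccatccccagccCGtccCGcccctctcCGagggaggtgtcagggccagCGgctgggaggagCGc

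At Plagl1, run 1 called 3 of 19 CpGs, all at the end nearest the start, and run 2 called 14. At Atf7ip the numbers were 11 and 20 of 20, and at Peg3, where only run 2 had a peak over the promoter, 2 and 8 of 8. The added CpGs lay farther from the start than those called in run 1 at Plagl1 and Peg3, and on both sides of them at Atf7ip. At Zfp996, run 1 called 19 of 22 CpGs and run 2 16. The Plagl1 window was methylated in 3 of 3 run 1 calls (100%, interval 43.9 to 100%) and in 75.0% of 28 run 2 calls (56.6 to 87.3%). The Atf7ip window was at 39.3% of 28 calls (23.6 to 57.6%) and 34.7% of 124 (26.9 to 43.4%). Zfp996 was unmethylated, with 0 of 56 calls in run 1, which allows a level of up to 5.36% (3 calls of the total, the limit used for counts of 0), and 1.27% of 79 in run 2 (0.224 to 6.83%). Within each promoter the intervals of the runs overlapped.

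Run 1 gave 1932036 calls at 1413386 of 20383623 CpGs (6.93%), and run 2 gave 6065726 calls at 3279239 CpGs (16.1%). Calls inside a run's own peaks made up 22.4% and 32.0% of its total. Run 1 peaks had a median width of 1341 bp and covered 27.5 Mb, and run 2 peaks 1558 bp and 49.8 Mb. The narrowest peak in both lists was 1001 bp, a width shared by 36.0% of run 1 and 29.3% of run 2 peaks. Over the 19 autosomes the ratio of run 2 to run 1 peaks went from 1.38 on chromosome 10 to 1.73 on chromosome 14, with a median of 1.49. The ratio of calls varied less, from 3.01 on chromosome 11 to 3.36 on chromosome 9.

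Nearly all of the run 1 list was contained in the run 2 list. Run 2 overlapped 12423 of the 12938 run 1 peaks (96.0%, interval 95.7 to 96.3%), while run 1 overlapped 11546 of the 19411 run 2 peaks (59.5%, 58.8 to 60.2%). What run 1 lacked depended on width. Of run 2 peaks at the minimum of 1001 bp, 21.6% were overlapped (20.5 to 22.7%), and of wider ones up to 2000 bp 59.4%. Above 2000 and up to 5000 bp the share was 84.9%, then 97.0% up to 10000 bp. Of 455 run 2 peaks over 10000 bp, 454 were overlapped. Run 1 peaks were overlapped at 92.8% to 98.6% in all 5 width bins. Counted as peaks that share at least 1 bp, wide peaks were thus met in both runs and unmatched ones were mostly narrow. In bases, shared regions differed too, with 26.7 Mb of run 1 and 39.0 Mb of run 2 peak. Run 2 only regions spanned 10.8 Mb. The H3K4me1 runs differed less, with 88.1% of run 1 and 95.2% of run 2 peaks overlapped by the other run.

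**Figure D1:**
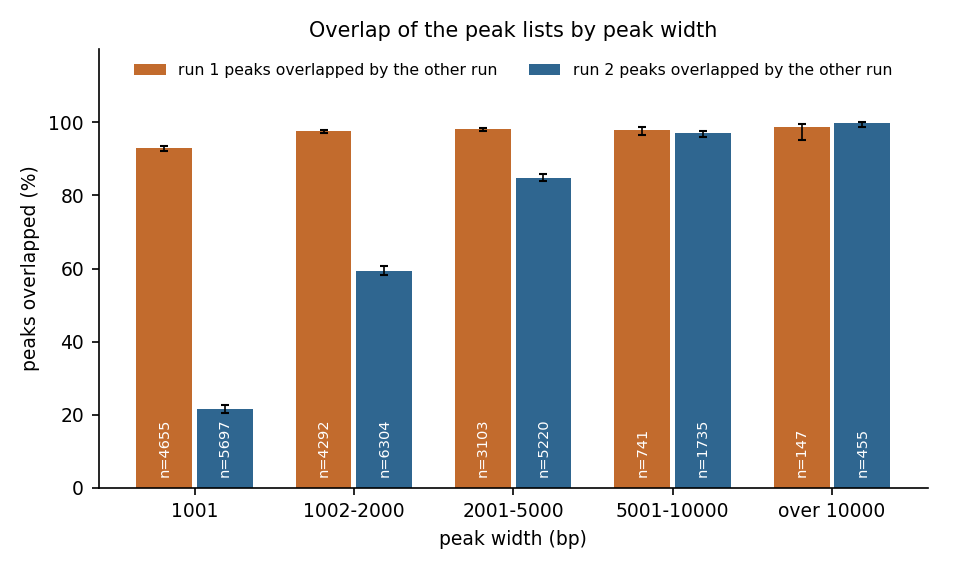
Share of H3K9me3 peaks (vertical axis, %) that shared at least 1 bp with a peak of the other run, by width of the peak (horizontal axis, bp); bars are run 1 and run 2, whiskers are Wilson 95% intervals and n is the number of peaks. Run 2 bars go from 21.6% at 1001 bp to 99.8% above 10000 bp, while every run 1 bar is at 92.8% or above.

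Regions of both runs had a median width of 2379.5 bp (quartiles 1549 and 4244). Run 2 only and run 1 only regions both had a median of 1001 bp, with upper quartiles of 1369 and 1351 bp. Over 5 kb were 2191 shared, 53 run 2 only (0.674%) and 18 run 1 only regions (3.50%). In the shared regions the run 2 peak was the wider in 9377 (81.4%), the run 1 peak in 1063, and 1084 were equal. The median there was 1404 bp in run 1 and 2310 bp in run 2. Run 1 split a region into more pieces than run 2 in 804 cases and run 2 did so in 18, and 10698 of the 11524 had 1 piece in each run. The run 2 peaks were thus mostly wider, while most regions were in 1 piece in both runs. By definition no run 2 only region touched a run 1 peak, so an extended edge of a run 1 peak counts as shared. The median distance of run 2 only regions to the nearest run 1 peak was 36691 bp, and 14.7% lay within 5000 bp. Run 1 only regions lay nearer to a run 2 peak, at a median of 17780 bp, with 24.9% within 5000 bp. The run 2 list held more peaks over more bases, which shortens distances to it, and this was not adjusted for.

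The widest shared region, chr10:83403887-83467831, spanned 63945 bp with no annotated gene in it, Gm8270 being the nearest at 10242 bp. It was methylated at 94.9% of 2064 run 1 calls (93.8 to 95.7%) and 94.8% of 6684 run 2 calls (94.2 to 95.3%). The next in width were a 49225-bp region over Cfap53, a cilia gene, a 43736-bp region 368 bp from Cyp3a41a, a cytochrome P450 gene, and a 39284-bp region over Cep57l1. A 33375-bp region over Tdpoz3, of a tandem family of POZ-domain genes, also ranked among the 10 widest. The largest gain in peak length among these 10 was at chr7:26329937-26362845, 1846 bp from Nlrp9c, an oocyte-expressed NLR gene. It carried 9478 bp of run 1 peaks and 32838 bp of run 2 peaks, at 93.3% of 386 and 91.7% of 1515 calls methylated.

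The widest run 2 only region was chr7:26881798-26893328, 11531 bp, with no gene nearer than 24051 bp. Run 1 had 71 calls there, 97.2% of them methylated (90.3 to 99.2%), and run 2 had 487 at 91.0% (88.1 to 93.2%). The second, chr7:42390152-42399761, lay 11556 bp from the vomeronasal receptor pseudogene Vmn2r-ps59 and had 26.1 CpGs per kb. Others of the 10 lay in Marchf1, a ubiquitin ligase gene, and near Vmn1r42. All 10 had calls in run 1, from 13 to 162. The widest run 1 only region was chr15:9205666-9218715, 13050 bp, 3183 bp from Lmbrd2. It had 183 run 1 calls at 64.5% (57.3 to 71.1%) and 520 run 2 calls at 58.5% (54.2 to 62.6%), so the region with no run 2 peak held more run 2 than run 1 calls. The same was true of all 10 widest run 1 only regions, among them one 87 bp from Top1, the DNA topoisomerase I gene, with 131 and 415 calls. Over all CpGs run 2 had 3.14 times the calls of run 1, so a greater number in run 2 says little about a region. In run 1 only regions as a class the ratio was lower, at 2.69.

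By the median, CpG density was similar in shared and run 2 only regions. The median was 9.49 CpGs per kb in shared (interval 9.37 to 9.59), 9.39 in run 2 only (8.99 to 9.74) and 7.99 in run 1 only regions (6.99 to 8.81). Pooled over all bases of a class, the density was 10.5 in shared, 11.3 in run 2 only and 9.57 in run 1 only regions. The pooled density over the chromosomes as a whole was 8.48, below that of each class. The spread was broader in run 2 only regions, with quartiles at 5.99 and 15.0, than in shared regions, at 6.46 and 13.3. A gene body was touched by 34.1% of shared (33.3 to 35.0%), 31.4% of run 2 only (30.4 to 32.4%) and 34.8% of run 1 only regions (30.8 to 39.0%). By the region's midpoint, which does not depend on width, the shares were 29.52% of shared and 29.55% of run 2 only regions. Of all CpGs 56.9% lay in gene bodies, so each class lay outside genes more often than CpGs did. A further 11.5%, 9.99% and 12.4% lay within 5 kb of a gene. An annotated gene start with its flanking promoter window was touched by 2.62% of shared (2.34 to 2.93%) and 1.18% of run 2 only regions (0.966 to 1.45%). Shared regions were wider and so touch more windows, and this share was not computed at like widths.

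The control without bisulfite was not used to make the classes. It overlapped 75.3% of shared (74.6 to 76.1%), 21.8% of run 2 only (20.9 to 22.8%) and 31.3% of run 1 only regions (27.4 to 35.4%). At like widths the order remained. Of regions wider than 1001 and up to 2000 bp it overlapped 57.7% of shared, 30.9% of run 2 only (29.1 to 32.7%) and 43.4% of run 1 only (34.4 to 52.9%). Above 2000 and up to 5000 bp the shares were 84.0%, 41.6% and 56.9%. Seen from the control, 9272 of its 12164 peaks (76.2%) were met in both runs, 2024 (16.6%) in run 2 only, 165 (1.36%) in run 1 only and 703 (5.78%) in neither. Run 2 thus overlapped more of the control list. H3K27me3 peaks from 250000 cells touched 0.850%, 0.954% and 0.971% of the classes, and H3K4me1 run 2 peaks 6.81%, 4.21% and 3.88%.

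Calls were present in nearly all regions of each class. In run 1, calls per CpG were 1.19 in shared, 0.699 in run 2 only, 1.38 in run 1 only regions and 0.0674 outside all of them. Run 2 had 3.81, 2.90, 3.72 and 0.206 in the same order. Run 2 only regions thus had 10.4 times the outside density of calls in run 1 and 14.1 times in run 2, and run 1 only regions 20.6 and 18.1 times. Since the lists were made from these reads, this order within a run describes the classes and is no test of them. Run 2 calls outnumbered run 1 calls 3.19 times in shared, 4.15 in run 2 only, 2.69 in run 1 only regions and 3.06 times outside. Of run 2 only regions, 318 of 7865 (4.04%) had no run 1 call, and 6 of 515 run 1 only regions (1.17%) had no run 2 call.

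Methylation was high in every class and close between the runs. Shared regions were at 84.6% in run 1 and 85.3% in run 2, run 2 only regions at 83.4% in both, and run 1 only regions at 84.3% and 85.5%. CpGs outside were at 79.5% and 80.2%. Over all CpGs the level was 81.1% in run 1 and 81.7% in run 2, and it was higher in run 2 on 19 of 19 autosomes, by 0.380 to 1.24 percentage points. In regions that had 20 calls or more, the median was a level of 89.0% in run 1 and 88.9% in run 2 for shared regions, 88.6% and 89.3% for run 2 only, and 90.9% and 91.6% for run 1 only. The H3K27me3 library, a different pull-down of the same cell line, gave 62.8%, 57.6% and 51.9% in the 3 classes and 32.3% outside. It called 11.6%, 14.3% and 14.7% of the CpGs in the classes, at 0.109, 0.165 and 0.157 times its outside density of calls. In regions that had 20 or more of its calls, the median level was 81.0% in 531 shared, 56.0% in 191 run 2 only and 52.5% in 11 run 1 only regions. Its levels thus cover a small part of each class.

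**Figure D2:**
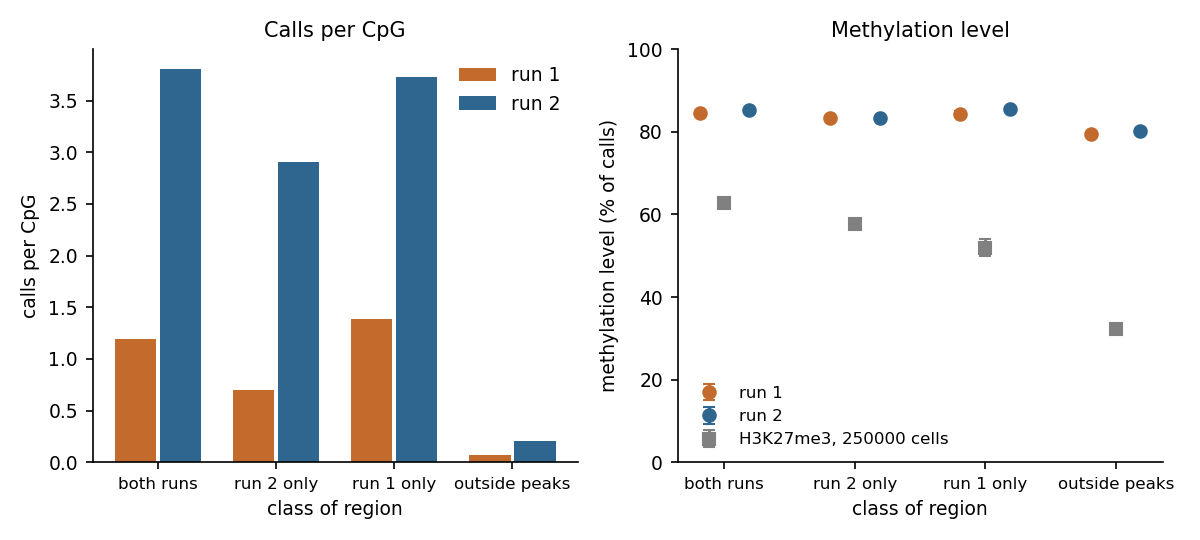
Left, calls per CpG (vertical axis) by class of region in run 1 and run 2; right, methylation level (% of calls) in the same classes, with the H3K27me3 library from 250000 cells as squares and Wilson 95% intervals as whiskers, most smaller than the symbol. Run 2 only regions have 0.699 and 2.90 calls per CpG against 0.0674 and 0.206 outside, and both H3K9me3 runs lie between 83.4% and 85.5% in all 3 classes.

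CpGs called in both runs were at 82.0% and 82.7%. The 2215774 CpGs that run 2 alone called were at 80.8%, and the 349921 that run 1 alone called at 77.1% (77.0 to 77.2%). In the H3K27me3 library the same 2 sets were at 37.0% and 33.3%, so the set seen by run 1 alone was the less methylated in that library too. Inside shared regions the order was different: CpGs called by run 2 alone were at 86.4% (86.3 to 86.5%), above the 84.9% of CpGs called in both runs. By the number of CpGs nearby, the runs stood furthest apart in 1 of 6 bins. CpGs with 7 to 10 others within 50 bp were at 54.0% of the 64463 run 1 calls and 60.4% of the 223779 run 2 calls. Those with 11 or more were at 16.2% in both, and isolated CpGs at 83.7% and 83.9%. Relative to run 1, run 2 calls numbered from 3.04 times at isolated CpGs to 3.47 times at those with 7 to 10 neighbours and 2.76 times at those with 11 or more.

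At CpGs called once in each run, the 2 calls were equal at 96.3% of 442541 CpGs outside the regions, 90.4% of 17281 in shared and 90.1% of 5422 in run 2 only regions. Pairs of calls inside run 2 were equal at 83.3%, 85.0% and 83.4% of CpGs with exactly 2 calls. Run 2 paired with the H3K27me3 library gave 81.2%, 82.1% and 81.9%. Calls of different runs were thus equal more often than 2 calls of run 2 were, outside and inside regions. Whether the runs shared all of their molecules was not tested. Thinned by a formula to the run 1 number of calls, run 2 would have covered 1417510 CpGs, against 1413386 covered by run 1, a ratio of 0.997. The same ratio was 0.933 in shared and 0.942 in run 2 only regions, so that at equal calls run 2 was spread over slightly more CpGs there.

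Levels of single regions rarely differed. Of 8585 regions with at least 20 calls in each run, 58 were at least 20 points higher in run 2 (0.676%) and 35 at least 20 points higher in run 1 (0.408%), together 1.08%. The share was 0.985% of 7308 shared, 1.86% of 1131 run 2 only and 0 of 146 run 1 only regions, which allows up to 2.05% (3 regions of the total). The median absolute difference was 3.41 points. Among regions with at least 50 calls in each run, 6 differed by 20 points or more. The largest difference was at chr7:6251697-6259024 over Epp13, at 40.7% of 113 run 1 calls (32.1 to 49.9%) and 66.2% of 317 run 2 calls (60.9 to 71.2%). A 1768-bp region over Hsbp1, the heat shock factor binding protein gene, had 35.6 CpGs per kb and was at 7.14% of 70 (3.09 to 15.7%) and 32.6% of 181 (26.2 to 39.7%). At these 2 regions the intervals of the runs did not overlap, and the same held for some, not all, of the regions named next. All were picked for their large differences and the intervals are too narrow, so a lack of overlap is no test of a difference.

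A region over Ogfod2 and Gm16001, with 46.5 CpGs per kb, was at 26.5% of 102 and 50.1% of 373 calls. Its run 1 peak was 1342 bp and its run 2 peak 3418 bp. In the other direction, a region over Gm29683 was at 80.4% of 51 and 55.9% of 161 calls. One over Ube2l6, a ubiquitin-like conjugating enzyme gene, and Smtnl1 was at 89.7% of 68 and 70.7% of 184. One over Jazf1, a zinc finger gene, was at 86.0% of 86 and 67.6% of 318 calls. Of regions that had 50 or more calls in both runs, the 10 with the largest differences were all shared regions, and 7 of them were higher in run 2, by 18.5 to 25.5 points. One of these, over 4930554G24Rik, was at 23.5% and 42.0%.

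Gene lists were read by the run that had a peak in the gene body or within 5 kb of it. Over all 47038 genes a window held a peak in both runs in 9.97%, in run 2 only in 4.57% and in run 1 only in 0.3%. Windows differed in length between lists, and a longer window meets a peak more often. The median window was 44497.5 bp for imprinted, 214522 bp for Pcdha and 10921 bp for Vmn1r genes, against 16274 bp for all genes. Of 22 imprinted genes, 14 had a peak in both runs and none in 1 run only. Run 1 peaks covered 4.22% of their window bases, against 0.808% for all genes. The windows of Igf2r and Airn overlap and each held 2718 bp of run 1 peak. Gnas, which encodes a G protein subunit, had 5868 bp of run 1 peak and was at 83.6% of 489 and 82.9% of 1294 calls. Mest was at 92.8% of 470 and 92.1% of 1257 calls, Nnat at 85.6% of 478 and 88.1% of 1223, and the noncoding H19 at 93.4% of 427 and 93.4% of 1149. Every one of these imprinted genes with a run 2 peak also had a run 1 peak. Grb10, Rasgrf1 and 6 more had no peak in either run, although Rasgrf1 had 149 and 378 calls at 90.6% and 87.8%.

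Of 17 germline genes, 6 had a peak in both runs and 1, Dazl, which encodes a germ cell RNA-binding protein, in run 2 only. Dazl was at 70.1% of 107 run 1 calls and 58.1% of 277 run 2 calls. Mov10l1, an RNA helicase of the piRNA pathway, was at 81.7% of 164 and 86.9% of 781 calls, and Sycp1, a synaptonemal complex gene, at 72.9% of 118 and 66.5% of 382. Dpep3 was at 95.6% of 113 and 89.8% of 275. Of 18 genes of the H3K9me3 machinery, Atf7ip and Morc3 had a peak in both runs and Zfp809 and Cbx3 in run 2 only. Atf7ip was at 57.6% of 276 and 52.1% of 633 calls, and Morc3, an ATPase of heterochromatin, at 67.3% of 98 and 66.7% of 363. Zfp809, a KRAB zinc finger protein that binds proviral DNA, was at 58.9% of 73 and 66.2% of 198. Cbx3, which encodes HP1 gamma, had 25 and 64 calls. None of 16 pluripotency genes had a peak in either run. Esrrb had the most calls among them, at 59.4% of 106 and 62.3% of 300, and Nanog had 26 and 58.

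Among tandem families the run that had a peak varied. Windows of neighbouring genes overlap, so members share peaks and are not independent. Of 365 genes named Zfp, 68 had a peak in both runs, 22 in run 2 only and 1 in run 1 only. Of 372 Vmn1r vomeronasal receptor genes, 24 had a peak in both runs and 30 in run 2 only. Of 251 Vmn2r genes the numbers were 55 and 25, and of 1419 Olfr olfactory receptor genes 142 and 65 (4.58%), shares near those of all genes. In Vmn1r, run 2 only genes outnumbered those found in both runs, though not within 2 kb of the gene ends, where 12 had a peak in both runs and 11 in run 2 only. Its window of most calls, Vmn1r-ps29, had 88 calls in run 1 at 89.8% and 499 in run 2 at 92.4%, with a peak in run 2 only. Of 45 major urinary protein (Mup) genes, 11 had a peak in both runs and 2 in run 2 only. The window of Mup-ps1 held 10223 bp of run 1 and 24783 bp of run 2 peaks, with 364 and 1640 calls.

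The clustered protocadherins, cell adhesion genes with variable first exons, differed by cluster. Of 14 Pcdha windows, 12 had a peak in both runs. The window of Pcdha1, which spans much of the cluster, held 15595 bp of run 1 and 13305 bp of run 2 peaks, at 85.3% of 1754 and 84.1% of 5065 calls. None of 22 Pcdhb windows had a peak in either run. Of 22 Pcdhg windows, 11 had a peak in run 2 only. These 11 windows overlap and all held the same 1350 bp, so they are not 11 separate cases. The windows of Pcdha1 to Pcdha6 also overlap and each held 15595 bp of run 1 peak. The Pcdhga1 window was at 47.4% of 369 and 50.6% of 862 calls.

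**Figure D3:**
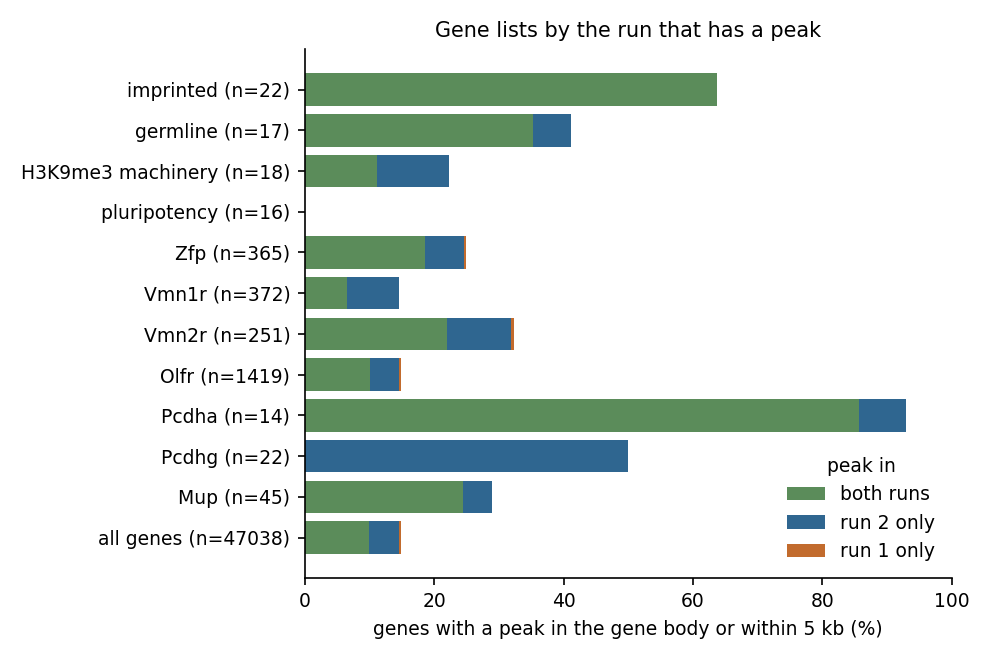
Share of genes (horizontal axis, %) whose body or 5 kb flanks held an H3K9me3 peak in both runs, run 2 only or run 1 only, for the gene lists and for all 47038 genes on chromosomes 1 to 19. The bar of the imprinted genes is of shared peaks alone, at 63.6%, and the pluripotency list has no bar. The Pcdhg bar is of run 2 only, at 50%, from overlapping windows that hold the same 1350 bp of peak. Windows differ in length between the lists, so the bars are not at like widths.

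Some places had many calls and no peak. The windows of Zfp978 and Zfp982, both among the 4 Zfp genes with the most run 2 calls, had 1156 and 5046 calls (70.1% and 69.9% methylated) and 982 and 3447 calls (85.5% and 85.6%), and no peak in either run. Both lie in a 2.46-Mb stretch, chr4:145395130-147855291, with 81 genes, 16 of them named Zfp and 6 Vmn2r. None of the 11 peak lists of the study had a peak in it. It held 0.460 calls per CpG in run 1 and 1.83 in run 2, against 0.0674 and 0.206 outside the regions, and was at 72.1% and 72.7%. A second such stretch, chr8:19941231-20978401, held 0.293 and 1.35 calls per CpG at 48.2% and 53.8%. Of the 100 tiles of 50 kb with the most run 2 calls per CpG, 32 held no peak of either run and 30 held no peak of any of the 11 lists. A gene without a peak in these lists was therefore not always a gene without calls. Why these stretches have no peaks was not tested.

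One tile of another kind, chr17:39800001-39850000 over Rn18s-rs5, a ribosomal RNA related sequence, had 2170 and 5446 calls at 4.52% and 3.87%, and 33798 calls in the H3K27me3 library at 3.22%. It was the tile of lowest methylation among the 25 tiles of most calls without a peak.

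CpGs with 100 or more calls numbered 81 in run 1 and 308 in run 2, 71 of them the same, and 318 in either. They fell in 27 clusters of CpGs within 1 kb of each other. Of the 318, 297 lay outside every peak of both runs. They took 26861 run 1 calls (1.39%) and 126759 run 2 calls (2.09%). Their ratio of run 2 to run 1 calls was 4.72, against 3.12 at all other CpGs. As most of them passed the threshold through their run 2 calls, a higher ratio follows in part from how they were chosen. Their level was 84.7% in run 1 and 85.7% in run 2, and 76.2% of 8356 calls in the H3K27me3 library.

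The top cluster, chr2:98666262-98667310, of 29 such CpGs, had 10814 run 1 calls at 87.8% and 52780 run 2 calls at 88.2%. A single CpG in it had 5054 run 2 calls and 1351 in run 1. Run 2 calls there outnumbered those of run 1 by 4.88 times. At the start of the chromosome 9 sequence the ratio was larger. The cluster chr9:3000031-3007140 had 921 and 15206 calls, a ratio of 16.5, at 87.1% and 85.6%, and chr9:3022161-3027160 had 976 and 9697, a ratio of 9.94. Of the 318 CpGs, 167 lay at this end of chromosome 9 and 57 within the chromosome 2 site. In contrast, chr14:19415740-19418836 had 2850 and 6202 calls, a ratio of 2.18, below that of the rest of the genome.

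CpGs at the chromosome 9 site repeated with a fixed period. Of 785 CpGs in its first stretch, chr9:3000031-3039792, 308 (39.2%) had another CpG exactly 234 bp on, the commonest spacing there, against 1.59% of all CpGs. At the chromosome 14 site the share at 234 bp was 16.2% and at the chromosome 2 site 9.18%, though the commonest spacings there were 351 bp (17.1%) and 88 bp (10.2%). At a chromosome 10 site, chr10:58205880-58299895, the share at 234 bp was 1.49%, near that of all CpGs. The unit of mouse major satellite DNA, the pericentromeric repeat, is known to have about the length seen at the chromosome 9 site, and no repeat annotation was used here. Other clusters lay in genes. One in Dpy30, which encodes a subunit of H3K4 methyltransferase complexes, had 1365 and 3372 calls at 93.6% and 92.4%. Of the 10 clusters with the most run 2 calls it was the one that lay in a peak of both runs and of the control. One in Sfi1, a spindle assembly gene, was at 40.3% of 1102 and 37.7% of 2915 calls, and at 13.7% of 940 in the H3K27me3 library. The other 9 of these 10 clusters had no peak in either run.

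**Figure D4:**
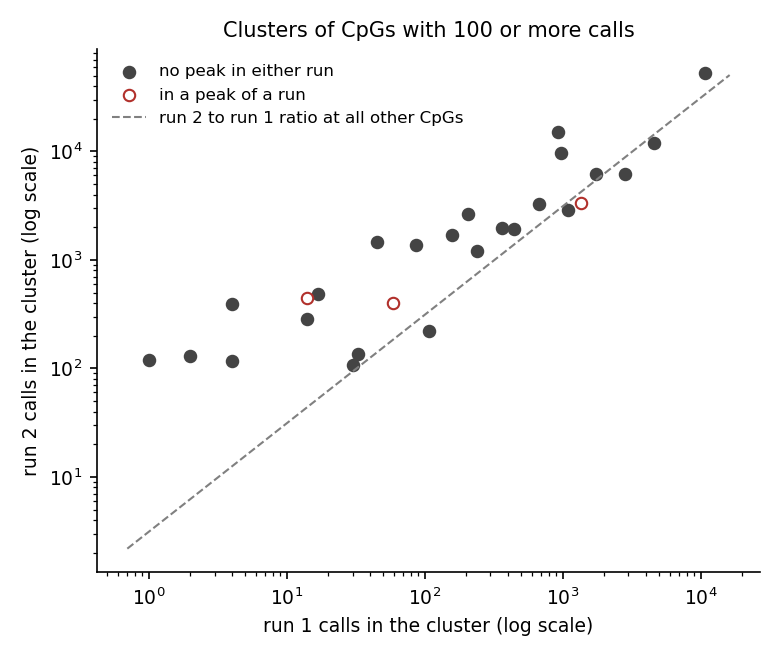
Calls in run 1 (horizontal axis, log scale) and run 2 (vertical axis, log scale) at the 27 clusters of CpGs with 100 or more calls in either run; open symbols lie in a peak of either run, and the dashed line is the ratio of 3.12 at all other CpGs. Most clusters lie above the line, chr2:98666262-98667310 at the upper right with 10814 and 52780 calls.

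The runs also differed in how often the neighbour of a called CpG was called. At a CpG with exactly 1 call in run 1, a neighbour 1 to 10 bp away was called in 84.6%, one at 31 to 40 bp in 26.1%, and one at 41 to 50 bp in 23.8%. In run 2 these shares were 92.7%, 60.5% and 53.1%. Most of the decline with distance lay within 40 bp in run 1 and within 70 bp in run 2, where the share at 61 to 70 bp was 38.5%. Both curves then had a low and a second, wider rise. The run 1 share was 19.8% at 81 to 90 bp and 24.1% at 151 to 160 bp, and the run 2 share 36.1% at 81 to 90 bp and 37.6% at 101 to 110 bp. At 291 to 300 bp the share was 17.0% in run 1 and 29.5% in run 2. Of all CpGs, 6.93% were called in run 1 and 16.1% in run 2. How much of the gap between the curves goes with depth was not tested. Neighbours with 1 call each were in the same methylation state in 85.7% of run 1 and 85.6% of run 2 pairs at 1 to 10 bp, and in 77.9% and 78.5% at 41 to 50 bp. The runs differed there by less than 1 point, while the share of neighbours called differed widely. The H3K4me1 runs gave 38.8% in run 1 and 57.5% in run 2 at 41 to 50 bp.

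**Figure D5:**
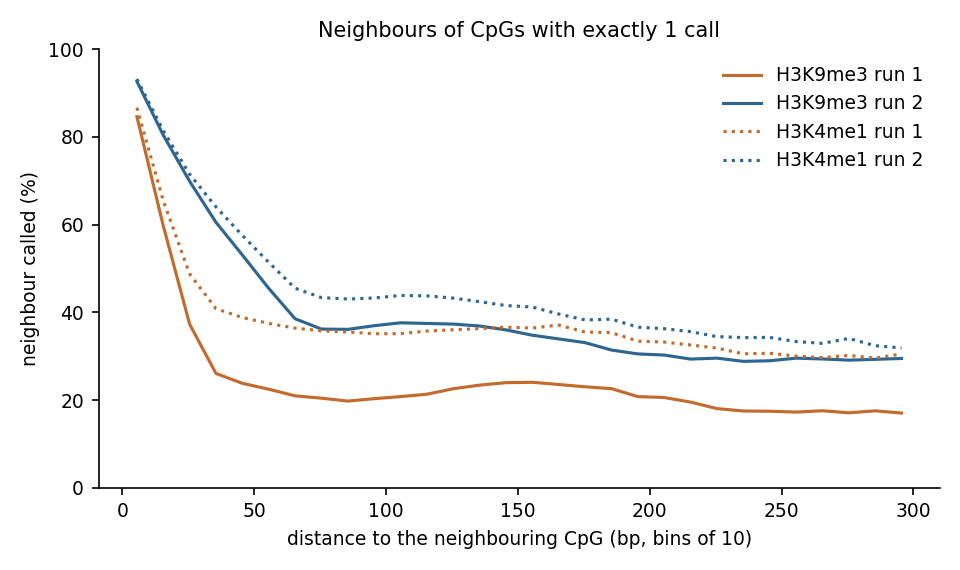
Share of neighbouring CpGs with a call (vertical axis, %) by distance (horizontal axis, bp, bins of 10) at CpGs with exactly 1 call, for the H3K9me3 runs (solid) and the H3K4me1 runs (dotted). At 41 to 50 bp the H3K9me3 lines stand at 23.8% in run 1 and 53.1% in run 2.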

How the data were processed

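H3K9me3 CUT&Tag-BS was measured in E14 cells in 2 runs of 1 library. The submitters' processing notes list cutadapt 1.12, Bismark 0.23.0, Bowtie2 2.3.0, HOMER 4.10.3, bedtools 2.29.2 and mm10, without roles. How duplicate or multiply mapped reads were treated is not given in the sources used here. The deposited table gives, per the file headers, counts of methylated calls and of all calls per CpG, as raw whole numbers, strands combined. Of its columns of calls, 0 were without a sample. The deposited peak lists of the authors hold positions without scores.

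The build was checked: all 395568 CG pairs of RefSeq promoters (GRCm38.p6, 31396 promoters) fell on table positions. Peaks were merged at an overlap of 1 bp on chromosomes 1 to 19. Levels are methylated over all calls. Shares have Wilson 95% intervals and medians order-statistic 95% intervals, all for counting error, computed with Python 3 (numpy, pandas, scipy). Scripts were tested on simulated data. Each group is 1 sample, so no test across samples was run. Depth was 1932036 calls in run 1 and 6065726 in run 2.

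The members and gene lists were chosen with earlier results of these data known. Named were the 10 widest regions of each class, the 10 largest differences in level among regions of 50 or more calls in both runs, the 10 clusters with the most run 2 calls and, per list, the 4 members with the most run 2 calls; tiles and promoters were chosen after values were seen. Not every region or gene picked by these rules is printed. The Pramef list had no member in the gene table, Tex11 was not on chromosomes 1 to 19, and of the shorter lists Obox, Zscan4, Speer and Skint had 1 run 2 only gene each, Tdpoz 2 and Speer 2 genes with peaks in both runs, and Sp110 and Sp140 no peak.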

Additional observations from a re-analysis of the deposited data

Results flagged for a closer look

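The number of peaks moved in opposite directions from run 1 to run 2 in the 2 marks. On chromosomes 1 to 19 run 2 had 6473 more H3K9me3 peaks than run 1, while the H3K4me1 lists had a change of -1653, from 32528 to 30875. Each mark has 1 library, so this difference was not tested. The calls of both marks were more numerous in run 2, with ratios of 3.14 for H3K9me3 and 1.97 for H3K4me1.

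The X chromosome was outside the comparisons and also held signal. It had 293 run 1 peaks and 762 run 2 peaks. Run 2 overlapped 96.2% of the run 1 peaks there, and run 1 overlapped 36.6% of the run 2 peaks (33.3 to 40.1%), against 59.5% on chromosomes 1 to 19. The X calls were methylated at 85.1% in run 1 and 85.5% in run 2.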

How the results depend on the processing

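No paired analysis was possible because each group has 1 sample. Of 67 alternatives over 31 results, 21 gave a value within the counting interval, or within 1.5 times for a count and 46 moved it. The order of shared and run 2 only regions turned in some comparisons, named below: CpG density, gene bodies and Vmn1r genes. It also turned for the run 1 methylation level at CpGs with 5 or more calls. With at least 50% of a peak covered, 95.5% of run 1 and 47.9% of run 2 peaks were overlapped by the other run. With the same number of widest peaks from each list these shares were 83.2% and 76.3%; this setting changes list length and peak width together. With the X chromosome, 58.6% of run 2 peaks were overlapped. With the widest peaks, median widths were 2776 bp in shared and 1550 bp in run 2 only regions, and CpGs per kb 9.55 in shared, 9.81 in run 2 only and 8.99 in run 1 only. At 1000 to 2000 bp, shared regions had a median of 1423 bp and 9.12 CpGs per kb. In protein-coding gene bodies lay 21.4% of shared, 20.9% of run 2 only and 24.9% of run 1 only regions, and by midpoint 29.52% of shared and 29.55% of run 2 only lay in any gene body. The control covered at least 50% of 54.5% of shared and 17.6% of run 2 only regions.

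As the mean of single CpG levels, shared regions were at 85.5% in run 1 and 86.0% in run 2, and run 2 only regions at 83.7% in run 2. At CpGs with 5 or more calls, shared regions were at 81.1% and 84.7% and run 2 only regions at 81.3% and 82.6%. The runs thus stood further apart there, and in run 1 shared regions were slightly below run 2 only regions. The number of regions that differed was 6 at 50 calls or more and 899 at 10 points. CpGs with at least 50 calls numbered 146 in run 1 and 583 in run 2, and with at least 200 calls 40 and 154. At CpGs with at least 1 call, neighbours at 41 to 50 bp were called in 30.1% (run 1) and 64.1% (run 2), and outside peaks 18.3% and 51.9%. By gene body alone, 12 zinc finger genes had a peak in run 2 only, 4 and 8 Vmn1r genes in both runs and run 2 only, and 2946 and 1398 of all genes. Within 2 kb of the gene ends the numbers were 32 and 9 zinc finger genes, 12 and 11 Vmn1r genes, and 1806 and 1031 of all genes. Vmn1r genes of run 2 only thus did not outnumber the others there. Depth limits the comparison of single regions: 8585 of 19904 had 20 calls in each run.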

Other observations

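The tiles of 50 kb with many calls and no peak of either run included some with no gene and some with genes, of which 3 are given here, chosen after their values were seen. The tile chr10:58200001-58250000, over Duxf3, of the tandem Dux array of embryonic genome activation, had 834 run 1 calls at 91.7% and 3634 run 2 calls at 89.3%. The tile chr13:12800001-12850000, over Prl2c3, of a tandem prolactin family, had 527 calls at 87.3% and 2093 at 89.0%. The tile chr7:43150001-43200000, over Zfp936, had 574 calls at 70.7% and 1999 at 72.3%. Of 515 tiles with over 2 run 2 calls per CpG, 60 held no peak of either run. These 60 had 54436 run 1 and 223707 run 2 calls, a ratio of 4.11 against 3.14 over all CpGs; they were chosen by their run 2 calls, which raises this ratio.

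A single CpG on chromosome 14, chr14:124801845, had 14 run 1 calls and 284 run 2 calls, of which 2.46% were methylated, and one on chromosome 9, chr9:123930860, had 30 and 108 calls with none methylated, where 0 of 108 allows a level of up to 2.78% (3 calls of the total).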
